A study of Mus musculus with 6 samples.

Results

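The complement system is the set of plasma proteins, proteases, cell-surface regulators and receptors that tags particles and cells for removal and signals to white blood cells. It was examined here through 32 mouse genes, chosen by name from the 56980 genes of the deposited table, and all 32 were found there. BM MSCs, the plastic-adherent stromal cells of the bone marrow, came from female mice that underwent ovariectomy (OVX) at 8 weeks of age, had their own gut microbiota depleted with antibiotics and then received fecal microbiota transplantation (FMT) by gavage for 8 weeks. The donor mice were OVX mice as well, sedentary for the 3 TranspCtrl samples and exercised on a treadmill for the 3 TranspExer samples. Both groups thus share the OVX of donors and recipients, the antibiotics and the gavage. The cells were what adhered from flushed marrow over 7 days with repeated washes, with no sorting described, and neither the strain nor the number of animals per sample is given in the sources used here. The comparison asks how the complement genes of these cultures differed with the donor's exercise.

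Several routes start the cascade. In the classical pathway C1q binds its target and switches on the proteases C1r and C1s, which cut C4 and C2. In the lectin pathway ficolins and collectins recognise sugars and use the MASP proteases, and in the alternative pathway C3, factor B, factor D and properdin amplify the reaction. All routes meet at C3, whose fragments coat surfaces, and lead to C5 and the pore-forming terminal components, while C1 inhibitor, decay-accelerating factor and CD59 hold the cascade in check. Macrophages are a main source of C1q, and fibroblast-like stromal cells can make C1r, C1s, C1 inhibitor and C3.

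Total counts ranged from 17647682 to 21319228 per sample. Levels are given in CPM, the counts of a gene per 1000000 counts of its library after scaling with edgeR's TMM factors. The floor used here, 3 counts, was worth 0.139 to 0.174 CPM, depending on the library. With 3 samples a group, an exact permutation test cannot give a p-value under 0.1, and the labels do not say whether the samples came from separate animals, so p-values measure only the spread between these samples. TranspCtrl replicate 1 stood apart: the mean chi-square per gene between it and the other TranspCtrl samples was 59.2 and 54, against 3.79 between replicates 2 and 3 and 4.43 to 7.82 between TranspExer samples. The values of complement genes whose call depends on it are also given without it. Where 3 values are listed for a group they stand in the order of its replicates 1, 2 and 3. Genes that mark blood and vessel cells were detected beside the stromal ones. All 16 genes of a stromal marker list passed the low-count filter, and so did all 15 macrophage, 12 neutrophil, 10 B cell and 12 endothelial markers. In bulk RNA, fewer cells of a type and less RNA per cell cannot be told apart.

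Of the 32 complement genes, 26 passed the filter and were tested among 15190 genes with edgeR's quasi-likelihood test and Benjamini-Hochberg adjustment. Past both thresholds, an adjusted p-value of 0.05 and a fold change of 2, *Cd93*, *C5ar1* and *C5ar2* rose in the TranspExer group and *C1s1*, *C2*, *Serping1* and *C1ra* fell. The 3 that rose were 11.5% of the tested complement genes, where 3.5% of all tested genes rose past both thresholds, and the 4 that fell were 15.4%, against 5.28% of all tested genes. At the adjusted p-value alone, that is whatever their fold change, 6 complement genes were higher (23.1%, against 16.6% of all tested genes) and 8 lower (30.8%, against 15.5%). Marker list counts at the adjusted p-value alone, given below, are to be read beside the same 16.6% and 15.5%. For 16 of the 26 (61.5%) the values of TranspCtrl and TranspExer did not overlap, and the same held for 52.4% of all tested genes. The median log2 fold change was -0.11 for the complement genes and -0.02 for all tested genes.

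**Figure D1:**
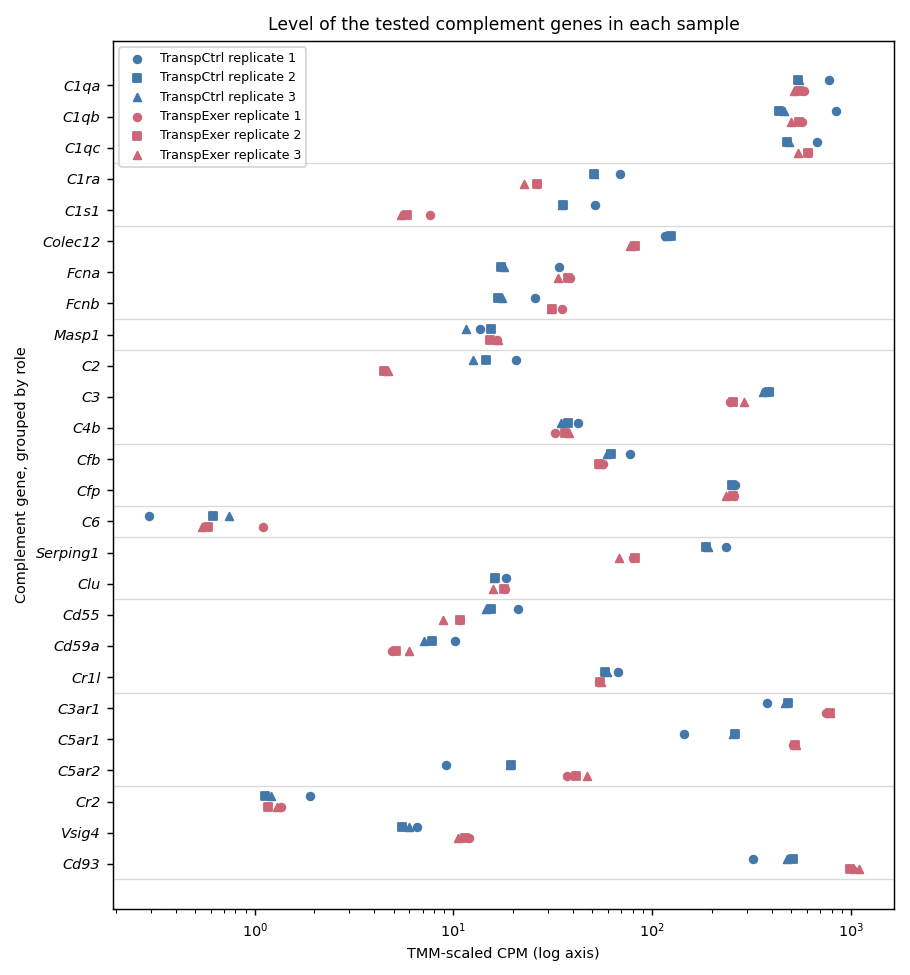
TMM-scaled CPM on a log axis of the 26 tested complement genes, grouped by role, with 1 point per sample and the groups offset within each row. The TranspExer points lie right of the TranspCtrl points for the receptors *C3ar1*, *C5ar1*, *C5ar2*, *Vsig4* and *Cd93*, left of them for *C1ra*, *C1s1*, *C2* and *Serping1*, and among them for the C1q genes.

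**Figure D2:**
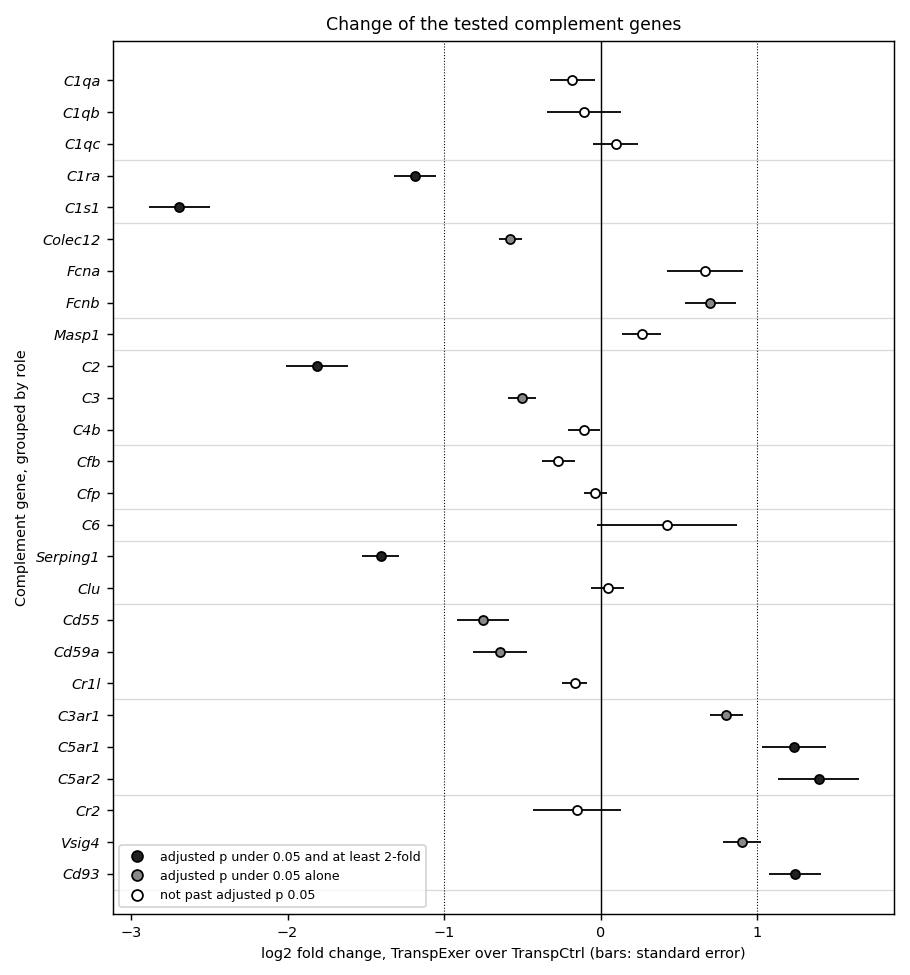
Log2 fold change, TranspExer over TranspCtrl, of the 26 tested complement genes with its standard error (SE), derived from edgeR's F statistic, as a bar. Dotted lines mark a fold change of 2 in either direction, and the fill of a point gives the thresholds passed, with *C1s1* lowest at -2.69 and *C5ar2* highest at 1.39.

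The 3 C1q genes, which encode the A, B and C chains of the recognition protein, were the most abundant per length among the 26 tested of the 32 complement genes in both groups. Their mean level was 598, 533 and 455 CPM per kb in TranspCtrl for *C1qa*, *C1qb* and *C1qc*, and 528, 496 and 486 CPM per kb in TranspExer. In CPM, *C1qa* (ENSMUSG00000036887, mm10 chromosome 4, 136895917 to 136898803) measured 772, 544 and 551 in TranspCtrl and 580, 550 and 516 in TranspExer. *C1qb* (ENSMUSG00000036905) measured 843, 434 and 462 CPM in TranspCtrl and 570, 549 and 499 CPM in TranspExer. *C1qc* (ENSMUSG00000036896) measured 675, 475 and 490 CPM in TranspCtrl and 608, 606 and 541 CPM in TranspExer. In all 3 genes TranspCtrl replicate 1 was the highest of the 6 samples, and the groups overlapped. Their log2 fold changes were -0.18, -0.10 and 0.10 (SE 0.14, 0.24 and 0.14), with adjusted p-values of 0.357, 0.754 and 0.628 from edgeR, so none passed. Without TranspCtrl replicate 1, *C1qb* and *C1qc* were higher in TranspExer by 0.27 and 0.28 on the log2 scale (adjusted p = 0.00351 and 0.00207 from edgeR), and *C1qa* differed by 0.002 (adjusted p = 0.981).

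The 3 genes lie side by side on chromosome 4. The ratio of *C1qa* to *C1qc*, both in CPM per kb, was 1.32, 1.32 and 1.30 in TranspCtrl and 1.10, 1.05 and 1.10 in TranspExer. The groups did not overlap in this ratio, although TranspCtrl replicate 1 was high in both genes, and the exact two-sided permutation p-value of 0.1 is the smallest possible (0.133 adjusted over the 8 ratios tested, which were picked after the values were seen). The ratio of *C1qb* to *C1qc* overlapped between the groups, with 1.38, 1.01 and 1.04 in TranspCtrl and 1.04, 1.00 and 1.02 in TranspExer (exact permutation p = 0.4).

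C1q was set beside the macrophage markers because macrophages are its main source. The summed CPM of 15 macrophage markers ranged from 8601 to 12920 in TranspCtrl and from 6996 to 7478 in TranspExer, a sum in which *Lyz2*, the lysozyme gene, dominated (6412 ± 2336 CPM (SD, n = 3) against 2910 ± 320). Without *Lyz2* the sum ranged from 3588 to 3818 and from 4243 to 4435 CPM, which turns its direction. *Lyz2* itself fell by 1.14 on the log2 scale, and by 0.80 without TranspCtrl replicate 1, where it was highest. Of the 15 markers, 6 were higher and 2 lower at the adjusted p-value alone (list median 0.29), and none was at 0. Without TranspCtrl replicate 1, *Adgre1*, *Cd163* and *Trem2* also passed, higher by 0.23, 0.40 and 0.54 on the log2 scale (edgeR adjusted p = 0.00277, 0.000825 and 9.06e-06). *Csf1r*, the receptor of the macrophage growth factor CSF1, had 882 ± 33 and 928 ± 41.9 CPM (SD, n = 3), which differed on the log2 scale by 0.07 (adjusted p = 0.511). *Cd68* differed by 0.78 on the log2 scale (adjusted p = 0.000377) and *Mrc1* by -0.33 (adjusted p = 0.0159). The summed C1q level divided by the macrophage sum was 0.169 to 0.177 in TranspCtrl and 0.222 to 0.235 in TranspExer, and without *Lyz2* it was 0.392 to 0.6 and 0.353 to 0.414. The first of these ratios did not overlap between the groups and the second did. Leaving out TranspCtrl replicate 1 moved the log2 difference of the first from 0.417 to 0.438 and that of the second from -0.27 to -0.08. These ratios are of CPM and can be read only between samples. The part of the number of macrophages in the C1q values was not tested.

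The proteases that C1q activates fell, together with their inhibitor. *C1s1* (ENSMUSG00000038521), the gene of the C1s protease, lies on chromosome 6 from 124530345 to 124542359. It measured 51.3, 35.6 and 35.2 CPM in TranspCtrl and 7.59, 5.81 and 5.46 CPM in TranspExer. Every TranspExer sample was far below every TranspCtrl sample. Its means of 40.7 ± 9.19 and 6.29 ± 1.14 CPM (SD, n = 3) gave a 6.47-fold lower level in TranspExer, a log2 fold change of -2.69 (SE 0.19, edgeR adjusted p = 8.62e-05), the largest change among the tested complement genes. *C1ra* (ENSMUSG00000055172), the gene of the C1r protease that cuts C1s, lies next to it at 124512405 to 124523443. It measured 69.0, 50.9 and 51.1 CPM in TranspCtrl and 26.3, 26.2 and 22.8 CPM in TranspExer. Here too the groups did not overlap, and the log2 fold change was -1.18 (SE 0.14, edgeR adjusted p = 0.00068). *C1ra* shared 48% of its 50-base transcript windows with *C1rb*, which had 0 counts in every sample, and *C1s1* shared 21.8% with *C1s2*, which had at most 4 counts, so reads of these close copies may have been assigned in either way. An antisense gene that overlaps *C1s1*, *Gm16567*, had a mean of 1.33 counts against 476 for *C1s1*.

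*Serping1* (ENSMUSG00000023224, chromosome 2, 84765387 to 84775444) encodes C1 inhibitor, the plasma protein that inactivates C1r, C1s and the MASP proteases. It measured 234, 187 and 190 CPM in TranspCtrl and 80.6, 82.5 and 67.8 CPM in TranspExer. The groups lay far apart, with the lowest TranspCtrl sample well above the highest TranspExer sample. The log2 fold change was -1.41 (SE 0.12, edgeR adjusted p = 0.000183), a 2.65-fold lower level. The ratio of the inhibitor to its target enzyme, *Serping1* over *C1s1* in CPM per kb, was 7.5 to 8.89 in TranspCtrl and 17.5 to 23.3 in TranspExer, without overlap (exact permutation p = 0.1, the smallest possible, or 0.133 adjusted over 8 ratios). Likewise the ratio of *C1s1* to *C1ra* was 0.729 ± 0.0297 in TranspCtrl and 0.257 ± 0.0352 in TranspExer (SD, n = 3), a difference of -1.51 on the log2 scale (exact permutation p = 0.1, or 0.133 adjusted over 8 ratios).

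Promoter windows of RefSeq (build GRCm38.p6, 250 bases before to 50 after a transcript start) were given for 21 of the 32 genes. They are shown for the pairs of neighbouring genes that moved together, *C1ra* and *C1s1* as well as *C5ar1* and *C5ar2*, and for *C1qc* as a C1q gene. Capitals mark matches to 4 motifs on either strand: GAGGAAGT (PU.1 type), GAAANNGAA (interferon response type), TTGCNNAA (C/EBP type) and GGANTTTCC (NF-kB type). The matches shown do not overlap each other. Of 32851 promoter windows of this length, 3.2%, 8.56%, 10.8% and 1.25% held these motifs, so a single match is a description of the letters only. The windows of *C1ra* (chr6:124512371-124512670, plus strand) and *C1s1* (chr6:124542310-124542609, minus strand) each held 1 match of C/EBP type. Another start of *C1s1* listed by RefSeq had no match.
C1ra: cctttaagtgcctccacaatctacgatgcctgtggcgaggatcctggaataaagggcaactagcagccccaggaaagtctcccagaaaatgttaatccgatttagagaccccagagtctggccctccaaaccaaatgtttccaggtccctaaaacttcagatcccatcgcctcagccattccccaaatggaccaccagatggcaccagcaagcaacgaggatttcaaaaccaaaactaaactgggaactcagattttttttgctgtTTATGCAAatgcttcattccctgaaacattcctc
C1s1: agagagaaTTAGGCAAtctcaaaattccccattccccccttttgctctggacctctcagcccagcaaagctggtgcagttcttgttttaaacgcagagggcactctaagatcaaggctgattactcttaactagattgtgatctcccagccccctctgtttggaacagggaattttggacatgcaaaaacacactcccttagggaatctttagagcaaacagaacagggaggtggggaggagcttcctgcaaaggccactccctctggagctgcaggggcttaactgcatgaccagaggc

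Of the genes of the next step, *C2* and *C3* fell and *C4b* did not pass. *C2* (ENSMUSG00000024371), whose protease product cuts C3 and C5 within the convertase, measured 20.8, 14.6 and 12.6 CPM in TranspCtrl and 4.5, 4.48 and 4.67 CPM in TranspExer. The TranspExer samples were close to each other and all lay below the TranspCtrl samples. The log2 fold change was -1.81 (SE 0.20, edgeR adjusted p = 0.000527), a 3.51-fold lower level. *Cfb* (ENSMUSG00000090231) encodes factor B, the counterpart of C2 in the alternative pathway, and lies directly beside *C2* on chromosome 17, at 34856374 to 34862518 against 34862604 to 34898265. It measured 77.4, 62.3 and 59.4 CPM in TranspCtrl and 56.4, 54.3 and 54.5 CPM in TranspExer. The groups did not overlap, but the log2 fold change of -0.27 (SE 0.11) did not pass (edgeR adjusted p = 0.0902). The ratio of *C2* to *Cfb* in CPM per kb was 0.219 to 0.278 in TranspCtrl and 0.0826 to 0.0888 in TranspExer, a log2 difference of -1.52 (exact permutation p = 0.1, the smallest possible, or 0.133 adjusted over 8 ratios). A gene model that spans both (*Gm20547*) had 0 counts, and *C2* also shares 161 exon bases with *Zbtb12* on the opposite strand, which had a mean of 184 counts against 206 for *C2*. Whether the counting used strand is not given in the sources used here, so reads of this stretch cannot be assigned with certainty.

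**Figure D3:**
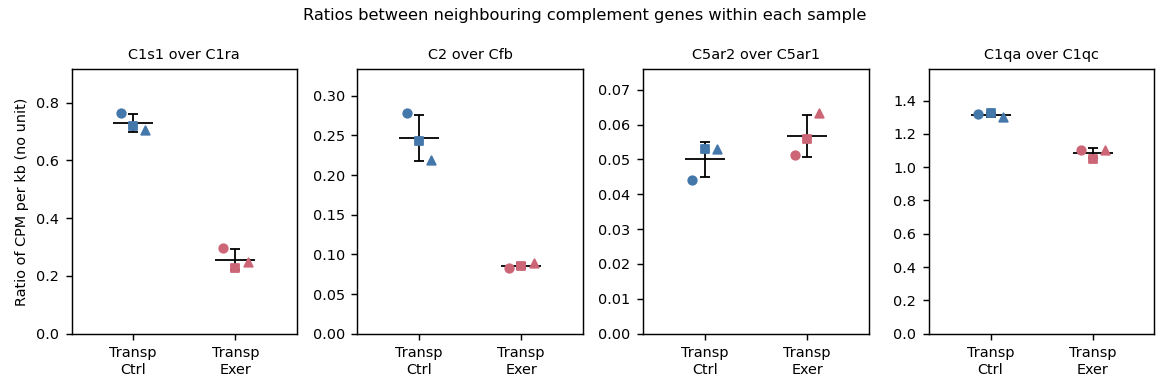
Ratios of CPM per kb within each sample (no unit) for 4 pairs of neighbouring genes, with the mean and SD of the 3 samples in black and the replicates as in the plot of CPM by sample. *C1s1* over *C1ra* and *C2* over *Cfb* were lower in every TranspExer sample, *C1qa* over *C1qc* was lower by a smaller margin, and *C5ar2* over *C5ar1* overlapped between the groups.

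*C4b* (ENSMUSG00000073418), one of a pair of near copies that encode C4, measured 42.5, 37.6 and 34.9 CPM in TranspCtrl and 32.4, 36.4 and 38.1 CPM in TranspExer. The groups overlapped, with a log2 fold change of -0.11 (SE 0.10, edgeR adjusted p = 0.455). Its copy *C4a*, which shared 30.6% of its 50-base windows with *C4b*, was counted 15, 16 and 9 times in TranspCtrl against 5, 3 and 4 times in TranspExer and was under the filter. When every gene with at least 1 count was kept, *C4a* had a log2 fold change of -1.61 (SE 0.55, edgeR adjusted p = 0.0462). It also entered the test when some samples were left out, with an adjusted p-value of 0.0231 without TranspCtrl replicate 3 and of 0.0638, 0.0919 and 0.0897 without TranspExer replicate 1, 2 and 3. *C3* (ENSMUSG00000024164, chromosome 17, 57203970 to 57228136), the central component, measured 371, 387 and 363 CPM in TranspCtrl and 247, 256 and 290 CPM in TranspExer. All TranspExer samples were lower, by 1.41-fold on average, a log2 fold change of -0.50 (SE 0.09, edgeR adjusted p = 0.00487) that passed the adjusted p-value but not the fold change of 2.

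Among the genes of the alternative pathway, *Cfp* (ENSMUSG00000001128), the gene of properdin, which stabilises the C3 convertase and is made mostly by myeloid cells, was one of the steadiest. It measured 262, 252 and 251 CPM in TranspCtrl and 257, 254 and 236 CPM in TranspExer, with a log2 fold change of -0.03 (SE 0.08, edgeR adjusted p = 0.759). *Cfd*, the gene of factor D or adipsin, best known from adipocytes, had at most 1 count in any sample. Its level was therefore below the floor in both groups, while the summed CPM of 10 adipocyte markers ranged from 943 to 1054 in TranspCtrl and from 2790 to 3234 in TranspExer. Of the 7 adipocyte markers tested, 5 were higher at the adjusted p-value alone (list median 0.80). *Lpl* made up most of the sum. *Pparg*, the gene of the main adipogenic transcription factor, rose by 1.31 on the log2 scale (edgeR adjusted p = 7.65e-05). *Plin1*, the gene of a lipid droplet coat protein, had 0 to 3 counts in TranspCtrl and 25 to 34 in TranspExer, and *Adipoq*, the adiponectin gene, had 16 to 22 counts over all samples. *Lep* and *Retn* had 0 counts in every sample and *Cidec* at most 1.

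Among the lectin pathway genes *Fcnb* rose and *Colec12* fell. *Colec12* (ENSMUSG00000036103), the gene of a scavenger-type collectin of the cell surface, measured 116, 124 and 119 CPM in TranspCtrl and 81.5, 82.3 and 77.3 CPM in TranspExer. Its groups did not overlap, and the log2 fold change was -0.58 (SE 0.07, edgeR adjusted p = 0.000977). *Fcnb* (ENSMUSG00000026835), a ficolin gene of immature myeloid cells, measured 25.7, 16.8 and 17.6 CPM in TranspCtrl and 35.4, 31.5 and 30.9 CPM in TranspExer. It rose by 0.70 on the log2 scale (SE 0.16, edgeR adjusted p = 0.0145), and with a TranspExer sample left out its adjusted p-value was 0.0705, 0.0538 or 0.0543. *Fcna*, the ficolin gene of macrophages, measured 34.0, 17.5 and 17.9 CPM in TranspCtrl and 38.7, 38.0 and 33.6 CPM in TranspExer. TranspCtrl replicate 1 lay among the TranspExer samples, and the log2 fold change of 0.67 (SE 0.24) did not pass (edgeR adjusted p = 0.0683). Without that replicate it was 1.05 (adjusted p = 8.04e-07), past both thresholds. DESeq2, the fit with all genes of at least 1 count and the fit with the replicate number as a block also put *Fcna* past the adjusted p-value (0.0233, 0.0118 and 0.0235). *Masp1* differed by 0.26 on the log2 scale (SE 0.13, edgeR adjusted p = 0.143), and *Masp2* had at most 1 count in any sample. *Masp2* shares 1817 exon bases with *Tardbp* on the opposite strand, which had a mean of 3733 counts, so reads of this stretch cannot be assigned with certainty. Beside the ficolins, the summed CPM of 12 neutrophil and granulocyte progenitor markers ranged from 3317 to 4399 in TranspCtrl and from 5869 to 6115 in TranspExer. Of these 12, 6 were higher and 2 lower at the adjusted p-value alone, with a list median of 0.42. The granule genes of early progenitors *Mpo*, *Elane*, *Ctsg* and *Prtn3* had log2 fold changes of 2.47, 2.16, 1.88 and 1.79. The abundant *Ngp*, *Ltf* and *S100a9* had 0.53, 0.07 and -0.07, of which only *Ngp* passed, and *Ly6g* and *Cxcr2*, genes of mature neutrophils, fell by 0.54 and 0.56 (edgeR adjusted p = 0.0375 and 0.0131). Without TranspCtrl replicate 1, *S100a9* was higher by 0.27 (edgeR adjusted p = 0.0198) and *Ly6g* no longer passed (0.0566). Their part in the ficolin values was not tested.

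The terminal pathway was nearly silent. *C6* was counted 6, 12 and 16 times in TranspCtrl against 21, 10 and 11 times in TranspExer, a log2 fold change of 0.42 with an SE of 0.45 (edgeR adjusted p = 0.49), so a difference was not detected. *C7* had 0 counts in every sample, which allows up to 0.174 CPM in the library with the highest floor.

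Of the other regulators, 2 of 3 on the membrane fell at the adjusted p-value alone, as 15.5% of all tested genes did. *Cd55* (ENSMUSG00000026399) encodes decay-accelerating factor, which takes convertases apart, and measured 21.2, 15.4 and 14.6 CPM in TranspCtrl against 10.8, 10.8 and 8.84 CPM in TranspExer. Its log2 fold change was -0.75 (SE 0.17, edgeR adjusted p = 0.0119), with an adjusted p-value of 0.0587 without TranspExer replicate 3. *Cd59a* (ENSMUSG00000032679), whose product blocks the membrane pore, measured 10.2, 7.80 and 7.11 CPM in TranspCtrl and 4.92, 5.17 and 5.96 CPM in TranspExer. Its log2 fold change was -0.64 (SE 0.17, edgeR adjusted p = 0.0244), and without a TranspExer sample the adjusted p-value was between 0.0537 and 0.0929. *Cr1l*, the gene of the rodent C3 convertase regulator Crry, was the most abundant of the 3 per length, with 37.2 and 33.2 CPM per kb, and its log2 fold change of -0.17 (SE 0.08) did not pass (adjusted p = 0.149). Its groups did not overlap. Near copies shared 8% of the 50-base windows of *Cd55*, 3.87% of those of *Cd59a* and 4.33% of those of *Cr1l*. *Clu*, the gene of the fluid-phase regulator clusterin, had 16.8 ± 1.32 and 17.3 ± 1.34 CPM (SD, n = 3), which differed on the log2 scale by 0.05 (edgeR adjusted p = 0.761), a value that had the other sign under 2 of the scalings tried. *Cfi*, the gene of factor I, had 0 counts in every sample, and *Vtn*, the gene of vitronectin, at most 1.

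The stromal marker list was set beside these genes. The summed CPM of its 16 genes was 15260 in TranspCtrl replicate 1, 23442 and 22510 in replicates 2 and 3 and 14647 to 15952 in TranspExer, so that only TranspCtrl replicate 1 lay within the TranspExer range. Without the 3 collagens the sum was 2709 to 2899 in TranspCtrl and 2560 to 2584 in TranspExer. At the adjusted p-value alone 10 of the 16 were lower and 3 higher, against 15.5% and 16.6% of all tested genes (list median -0.54), and none was at 0. The 3 higher were *Eng*, *Vcam1* and *Pdgfrb*, with log2 fold changes of 1.69, 0.65 and 0.39 (edgeR adjusted p = 0.000285, 0.000726 and 0.0237). *Col3a1* fell by 1.28 and *Cxcl12*, a niche chemokine, by 0.46 on the log2 scale (adjusted p = 8.1e-05 and 0.0051), and *Col1a1* differed by -0.16 (edgeR adjusted p = 0.674). *Col1a1* measured 4563 CPM in TranspCtrl replicate 1 and 9951 and 9613 CPM in the others, and without replicate 1 it was lower in TranspExer by a log2 value of -0.44 (edgeR adjusted p = 1.54e-05). The part of the stromal fraction in the values of *C1ra*, *C1s1*, *Serping1*, *C3* and *C2* was not tested.

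Of the 6 receptor genes, 5 rose at the adjusted p-value alone, as 16.6% of all tested genes did. All 3 receptors of the anaphylatoxins, the small C3a and C5a fragments that attract and activate myeloid cells, were higher in every TranspExer sample, and groups that did not overlap were found for 52.4% of all tested genes. *C3ar1* (ENSMUSG00000040552, chromosome 6), the C3a receptor gene, measured 379, 482 and 464 CPM in TranspCtrl and 751, 781 and 782 CPM in TranspExer. The log2 fold change was 0.80 (SE 0.11, edgeR adjusted p = 0.00128), a 1.75-fold rise. *C5ar1* (ENSMUSG00000049130), the gene of the main C5a receptor, measured 146, 261 and 255 CPM in TranspCtrl and 510, 524 and 527 CPM in TranspExer. TranspCtrl replicate 1 was the lowest sample, and the log2 fold change was 1.24 (SE 0.20, edgeR adjusted p = 0.00342). Without that replicate it was 1.01 (adjusted p = 8.44e-09). *C5ar2* (ENSMUSG00000074361), the gene of another C5a receptor that does not couple to G proteins in the usual way, measured 9.13, 19.6 and 19.2 CPM in TranspCtrl and 37.2, 41.4 and 47.3 CPM in TranspExer. It had a log2 fold change of 1.39 (SE 0.26, edgeR adjusted p = 0.00571), and 1.11 without TranspCtrl replicate 1. These receptors belong to macrophages and neutrophils, whose markers were given above, and the part of those cells in the receptor values was not tested.

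*C5ar2* (chromosome 7, 16234585 to 16244154) lies beside *C5ar1* (16246743 to 16259540). Their ratio in CPM per kb, *C5ar2* over *C5ar1*, was 0.0442, 0.0528 and 0.0530 in TranspCtrl and 0.0513, 0.0557 and 0.0632 in TranspExer, so the ratios overlapped (exact permutation p = 0.3, log2 difference 0.18, or 0.10 without TranspCtrl replicate 1). The ratio of *C3ar1* to *C5ar1* was 1.5, 1.06 and 1.05 in TranspCtrl and 0.848 to 0.860 in TranspExer (exact permutation p = 0.1, the smallest possible, or 0.133 adjusted over 8 ratios). The log2 difference of -0.47 was -0.30 without TranspCtrl replicate 1, the highest. The promoter window of *C5ar1* (chr7:16259289-16259588, minus strand) held 1 match of interferon response type and that of *C5ar2* (chr7:16244105-16244404, minus strand) 2 of C/EBP type. The window at another RefSeq start of *C5ar2* had none. The window of *C1qc* (chr4:136892865-136893164, minus strand), a gene that did not pass, held 1 match of PU.1 type, and that of *C1qb* had none.
C5ar1: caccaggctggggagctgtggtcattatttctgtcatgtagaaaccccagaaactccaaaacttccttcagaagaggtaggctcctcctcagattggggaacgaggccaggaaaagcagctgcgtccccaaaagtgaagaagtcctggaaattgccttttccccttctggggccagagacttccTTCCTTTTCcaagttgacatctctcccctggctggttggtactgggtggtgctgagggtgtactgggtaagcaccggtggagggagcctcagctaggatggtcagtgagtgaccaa
C5ar2: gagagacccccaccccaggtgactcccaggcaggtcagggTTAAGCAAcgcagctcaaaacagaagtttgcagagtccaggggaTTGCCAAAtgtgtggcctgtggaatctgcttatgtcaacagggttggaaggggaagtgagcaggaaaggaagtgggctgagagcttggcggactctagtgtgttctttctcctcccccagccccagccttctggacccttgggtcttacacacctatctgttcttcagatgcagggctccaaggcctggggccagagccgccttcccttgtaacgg
C1qc: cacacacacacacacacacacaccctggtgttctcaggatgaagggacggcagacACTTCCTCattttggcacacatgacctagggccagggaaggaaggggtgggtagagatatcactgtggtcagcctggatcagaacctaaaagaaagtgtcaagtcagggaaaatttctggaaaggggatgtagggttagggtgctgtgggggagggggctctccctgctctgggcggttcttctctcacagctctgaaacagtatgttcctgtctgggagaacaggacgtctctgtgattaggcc

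*Cd93* (ENSMUSG00000027435, chromosome 2, 148436640 to 148443563) encodes a surface glycoprotein of endothelial and myeloid cells that was first described as a C1q receptor. It measured 321, 509 and 478 CPM in TranspCtrl and 1011, 994 and 1097 CPM in TranspExer. The groups lay far apart, and TranspCtrl replicate 1 was the lowest sample. The log2 fold change was 1.25 (SE 0.17, edgeR adjusted p = 0.00132), and 1.07 without TranspCtrl replicate 1. Endothelial markers moved in the same direction. Their summed CPM ranged from 229 to 270 in TranspCtrl and from 728 to 782 in TranspExer, and all 12 were higher at the adjusted p-value alone, with *Cdh5*, *Robo4*, *Kdr* and *Pecam1* at log2 fold changes of 2.02, 2.59, 1.55 and 0.87 and a list median of 1.53. The ratio of *Cd93* to *Pecam1* in CPM per kb was 1.98, 3.11 and 3.07 in TranspCtrl and 3.37 to 3.77 in TranspExer (exact permutation p = 0.1, the smallest possible, or 0.133 adjusted over 8 ratios). The log2 difference of 0.40 was 0.19 without TranspCtrl replicate 1, the lowest. The part of endothelial cells in the value of *Cd93* was not tested.

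*Vsig4* (ENSMUSG00000044206), the gene of CRIg, a receptor of tissue macrophages for C3b and iC3b, measured 6.59, 5.49 and 6.00 CPM in TranspCtrl and 11.9, 11.4 and 10.5 CPM in TranspExer. The groups did not overlap, and its log2 fold change was 0.90 (SE 0.12, edgeR adjusted p = 0.00147). *Cr2*, the C3d receptor gene of mature B cells and follicular dendritic cells, had 22 to 39 counts in TranspCtrl and 20 to 26 in TranspExer, with a log2 fold change of -0.15 (SE 0.28, edgeR adjusted p = 0.7). It did not pass, while the summed CPM of 10 B cell markers ranged from 308 to 321 in TranspCtrl and from 197 to 213 in TranspExer and 7 of the 10 were lower at the adjusted p-value alone. The median of that list was -1.28, and its most abundant genes *Ebf1*, *Cd22*, *Ms4a1* and *Cd79a* had log2 fold changes of -0.01, 0.25, -1.25 and -1.42. The share of B cell RNA in the value of *Cr2* was not tested.

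**Figure D4:**
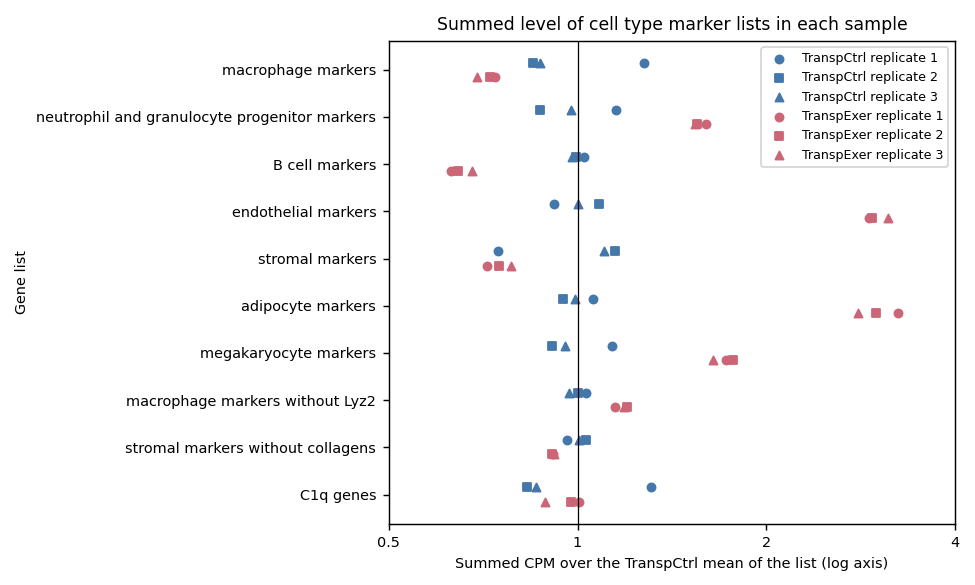
Summed CPM of each marker list and of the 3 C1q genes in each sample, divided by the mean of the TranspCtrl samples (log axis). Endothelial and adipocyte sums lie near 3 in all TranspExer samples, B cell sums below 1, the C1q sums of the groups overlap, and the macrophage sum changes sides when *Lyz2* is left out.

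The other genes of the pathway were taken from a list of 35. Of these, 11 passed the filter, among which 2 were higher (18.2%, against 16.6% of all tested genes) and 3 lower (27.3%, against 15.5%) at the adjusted p-value alone and none of these 5 reached a fold change of 2 (median log2 fold change of the 11, 0.07). *C1rl*, a relative of C1r that lies just before *C1ra*, had 11.8 ± 1.03 and 7.41 ± 0.494 CPM (SD, n = 3), which differed on the log2 scale by -0.67 (edgeR adjusted p = 0.00518). *Csmd1*, the gene of a large membrane regulator, differed by -0.62 on the log2 scale (adjusted p = 0.017).

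*Itgax* and *Itgb2* encode the integrin chains of complement receptor 4, CD11c and CD18. *Itgax* rose by 0.75 on the log2 scale, with 71.1 ± 6.80 and 119.7 ± 4.10 CPM (SD, n = 3, adjusted p = 0.000745 from edgeR), and *Itgb2* by 0.47 (adjusted p = 0.00557). *Itgam*, which pairs with *Itgb2* in complement receptor 3, differed by 0.07 on the log2 scale (edgeR adjusted p = 0.508) and did not pass. The other tested genes of the list that did not pass were *Calr*, *Ptx3*, *C1qbp*, *Cd46* and *Colec10*. Without TranspCtrl replicate 1, *Calr* passed, higher by 0.16 on the log2 scale (edgeR adjusted p = 0.0108). Of the 24 genes under the filter, 8 had 0 counts in every sample. Megakaryocyte markers had summed CPM of 253 to 315 in TranspCtrl and 457 to 491 in TranspExer, with 4 of 6 higher at the adjusted p-value alone (list median 1.29).

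TranspCtrl replicate 1 was then left out of the whole comparison, so that TranspCtrl had 2 samples. At the adjusted p-value alone 9 complement genes were then higher and 8 lower, where 22.1% and 19.6% of the 15494 genes tested in that fit were. Past both thresholds 4 were higher and 4 lower, against 3.27% and 5.01% of all genes. The 7 genes past both thresholds kept their direction, with *C1s1* at -2.49, *C2* at -1.58, *Serping1* at -1.30, *C1ra* at -1.03, *C5ar1* at 1.01, *Cd93* at 1.07 and *C5ar2* at 1.11 on the log2 scale. *C1ra* and *C5ar1* were then close to the fold change of 2.

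**Figure D5:**
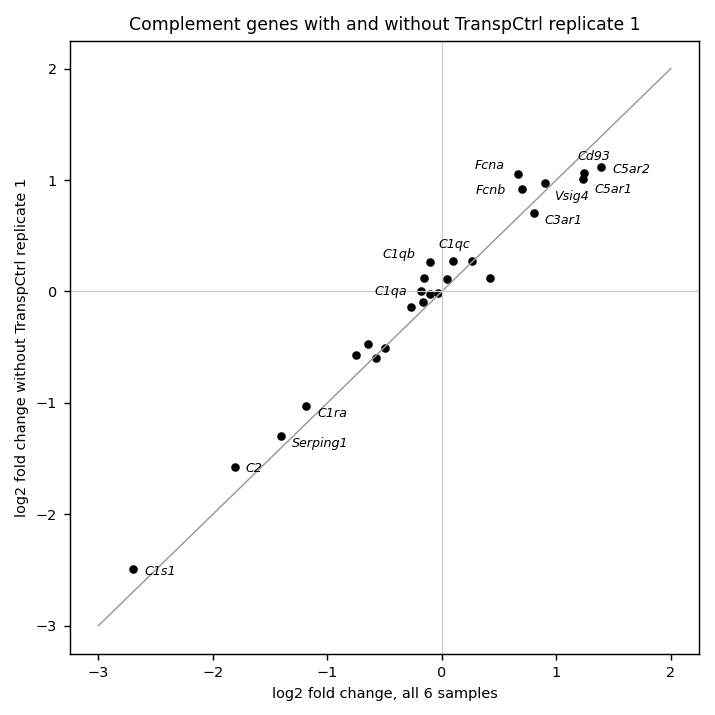
Log2 fold change of the 26 tested complement genes with all 6 samples (horizontal axis) and without TranspCtrl replicate 1 (vertical axis), with the line of equal values. *C1qb*, *C1qc* and *Fcna* are among the genes above the line and *C5ar1*, *C5ar2* and *Cd93* among those below it, while *C1s1* stays the lowest at -2.69 and -2.49.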

How the data were processed

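The deposited table held estimated counts per gene for 6 samples of BM MSCs with gene lengths, which the authors made on mm10 per the labels. The aligner, counting tool and annotation are not given in the sources used here. Between 10.1% and 12.2% of values were not whole and were rounded. Genes passing edgeR's filterByExpr (15190) were tested with edgeR 4.0.16 (R 4.3.3), TMM factors and the quasi-likelihood test, with Benjamini-Hochberg adjustment over all of them. The SE of an edgeR log2 fold change was derived as its absolute value divided by the square root of the F statistic of that test. The thresholds were an adjusted p-value of 0.05 and a fold change of 2. The script was tested on simulated data. Levels per kb used the deposited lengths. Ratios were compared with exact two-sided permutation tests (scipy 1.17.1). Alternatives were other scalings, DESeq2 1.42.0, other filters, the replicate number as a block and leaving out each sample.

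The complement genes, other lists and ratios were chosen with earlier results of these data known. The sums without *Lyz2* or the collagens were added after the values were seen. All 32 complement genes were accounted for. Of the other complement genes, those past both thresholds and up to 6 past the adjusted p-value were to be named, and of each marker list at most the 4 highest in mean CPM. Genes of these lists beyond that, such as *Lep*, *Plin1*, *Ly6g* and *Itgam*, were named after their values were seen. Coordinates are those of mm10. Protein sequences were not used here. For 1 gene of the list of other complement genes, the values are not reported here.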

Additional observations from a re-analysis of the deposited data

How the results depend on the processing

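Over all alternatives, 3 to 4 complement genes were higher and 4 to 5 lower past both thresholds, and 5 to 9 were higher and 6 to 9 lower at the adjusted p-value alone. For the other complement genes these were 2 to 3 higher and 3 to 4 lower. With the replicate number as a block, 7 complement genes were higher and 8 lower at the adjusted p-value alone, and 3 and 4 past both thresholds. Shares over all tested genes were worked out only for the main edgeR fit and without TranspCtrl replicate 1. At the adjusted p-value alone they were 16.6% and 22.1% higher, and 15.5% and 19.6% lower. The counts under the other alternatives have no such share beside them. The deviations of same-numbered samples correlated at 0.0247, -0.00167 and 0.0416, and not every sample correlated best with its own number. With so few samples a group, these values cannot decide whether same-numbered samples were paired, and the labels do not say.

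Of the values for single genes under the alternatives, 385 kept their direction and side of the threshold, 5 changed sign, 5 newly passed with the same sign and 7 no longer passed. Of those that changed sign, *C1qb* also newly passed. Without TranspCtrl replicate 1, *C1qa* (0.00197), *C1qb* (0.27) and *Cr2* (0.12) changed sign on the log2 scale, and over all left-out samples they ranged from -0.27, -0.27 and -0.28 up to these values, the lowest each without TranspCtrl replicate 2. The sign of *Clu* also changed with upper-quartile factors (-0.0355) and with library size alone (-0.0432). The cause was not tested. With 2 TranspCtrl samples the spread was estimated from fewer samples. *C6*, *Cr2* and the 6 genes under the filter had few counts, and the part of sequencing depth in their results was not tested.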
